A study of Mus musculus with 12 samples.

Results

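The respiratory chain and ATP synthase genes were examined in cultured ovaries of ageing mice. Genes were taken by symbol: those starting with Nduf, Uqcr, Atp5 or Cox4 to Cox8, together with Sdha to Sdhd and Cyc1, on probe sets annotated with exactly 1 symbol. This gave 90 of the 22180 genes named in this way, on 99 of 33793 probe sets, and for the 9 genes with several probe sets the one with the highest mean over all arrays was used. By complex there were 32 subunits of complex I, 4 of complex II, 8 of complex III, 19 of complex IV and 17 of ATP synthase (complex V), besides 8 complex I assembly factors and 2 pseudogenes. Ndufa4 and its paralogue Ndufa4l2 were counted with complex IV, to which Ndufa4 is now assigned despite its name. A further 10 probe sets carried several symbols and were not used, so Cox6c, Uqcr10, Ndufs6, Ndufb2 and Ndufb4 are not described. Ovaries of female C57BL/6 mice aged 12 or 6 months were cultured for 24 h with KRGSF, a saponin fraction of Korean red ginseng, at 10 mg/mL, or without it, and every ovary went through this culture step. The labels call the treatment RGE and the controls DMSO, where the methods describe culture without KRGSF, and these ovaries are called untreated here. RNA was hybridised to Mouse Gene ST arrays (Affymetrix), 3 per group, in 4 groups: treated and untreated ovaries at 12 months, and treated and untreated ovaries at 6 months. Ovary pairs of each age were divided at random between the treatments and samples were picked for RNA purity. Whether the 3 arrays of a group stand for different mice is not stated, so the p-values rest on array-to-array spread that could be technical in part.

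The respiratory chain sits in the inner mitochondrial membrane. Complexes I and II pass electrons from NADH and succinate to coenzyme Q, complex III hands them to cytochrome c, and complex IV gives them to oxygen. The proton gradient that complexes I, III and IV build drives ATP synthase. Most subunits are encoded in the nucleus and a small set by mitochondrial DNA, and steroid-producing cells and oocytes of the ovary are known for abundant mitochondria. The promoters of many nuclear subunit genes hold sites for ETS-family factors (NRF2/GABP), NRF1 and YY1, known regulators of these genes.

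RefSeq promoters (GRCm38.p6) were at hand for 72 of the 90 genes, and the 250 bases before the start site were searched on both strands. The ETS motif CCGGAAG lay in 14 of them (19.4%), against 7.83% of the promoters of 27025 genes. The NRF1 motif GCGCANGCG lay in 13 (18.1%), against 5.86%, and the YY1 motif AAGATGG in 1 (1.4%), against 5.18%. A match describes the letters and is not a binding site. The 120 bases before the start are shown for 2 genes that had higher values at 12 months, Sdha and Cox6a1, and 2 that had lower values with KRGSF at 12 months, Cox7a1 and Atp5j2, with motif matches in capitals. Sdha (chr13:74350241-74350360, minus strand) holds 3 NRF1 matches in this stretch (matches on both strands may overlap in the counts). Cox6a1 (chr5:115348959-115349078, minus strand) holds an NRF1 match and, read on the other strand, an ETS match. Cox7a1 (chr7:30184051-30184170, plus strand) and Atp5j2 (chr5:145191542-145191661, minus strand) hold none of the 3 motifs here. Cox5a and Cox5b, also higher at 12 months in KRGSF-treated ovaries, likewise hold none of the 3 in this stretch and are not shown.
Sdha: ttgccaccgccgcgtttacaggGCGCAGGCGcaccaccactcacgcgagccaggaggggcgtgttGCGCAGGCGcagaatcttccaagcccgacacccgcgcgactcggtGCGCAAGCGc
Cox6a1: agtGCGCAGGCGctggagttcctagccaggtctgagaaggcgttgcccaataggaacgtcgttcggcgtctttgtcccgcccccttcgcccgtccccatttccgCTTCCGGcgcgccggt
Cox7a1: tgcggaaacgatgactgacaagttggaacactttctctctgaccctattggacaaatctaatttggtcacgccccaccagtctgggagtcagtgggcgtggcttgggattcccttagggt
Atp5j2: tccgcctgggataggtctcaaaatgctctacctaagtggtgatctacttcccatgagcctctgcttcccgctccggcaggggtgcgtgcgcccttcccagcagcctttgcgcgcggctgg
Of the genes higher at 12 months in KRGSF-treated ovaries at an unadjusted p under 0.05, 15 had a promoter sequence, 2 with an ETS and 2 with an NRF1 match. Of those lower by any amount in that comparison 19 had one, 4 with an ETS and 3 with an NRF1 match.

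The arrays did not share one distribution. The SD of log2 values over all probe sets was 1.64 to 1.73 on the 12-month-old KRGSF-treated arrays, 1.56 to 1.60 on the 12-month-old untreated, 1.54 to 1.58 on the 6-month-old KRGSF-treated and 1.47 to 1.58 on the 6-month-old untreated arrays. 12-month-old KRGSF-treated replicate 2 had the widest spread and 6-month-old untreated replicate 2 the narrowest, and these 2 arrays had the lowest mean correlations with the others (0.958 and 0.953). The granulosa marker Inha lay between 6.40 and 7.79 on the log2 scale over all arrays, and the oocyte marker Gdf9 between 4.22 and 4.90. Bulk RNA cannot tell fewer cells of a type from less RNA per cell.

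Averaged over the 90 genes, the log2 value was highest in treated ovaries of the older mice. The means per array were 5.77, 5.77 and 5.74 in 12-month-old KRGSF-treated ovaries, 5.63, 5.66 and 5.72 in 12-month-old untreated, 5.69, 5.53 and 5.48 in 6-month-old KRGSF-treated and 5.79, 5.37 and 5.50 in 6-month-old untreated ovaries. The 12-month-old KRGSF-treated arrays lay close together (SD 0.019, n = 3) and above all arrays of the other groups but 6-month-old untreated replicate 1, which had the highest mean of all. The 6-month-old untreated arrays had the widest spread (SD 0.216, n = 3). That group's replicate 2 held the lowest value of the 12 arrays for 39 of the 90 genes (43.3%, against 15.5% of all probe sets). The highest value lay on replicates 1, 2 and 3 of the 12-month-old KRGSF-treated arrays for 12, 22 and 15 genes, against 4.0%, 16.1% and 5.0% of all probe sets.

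**Figure D1:**
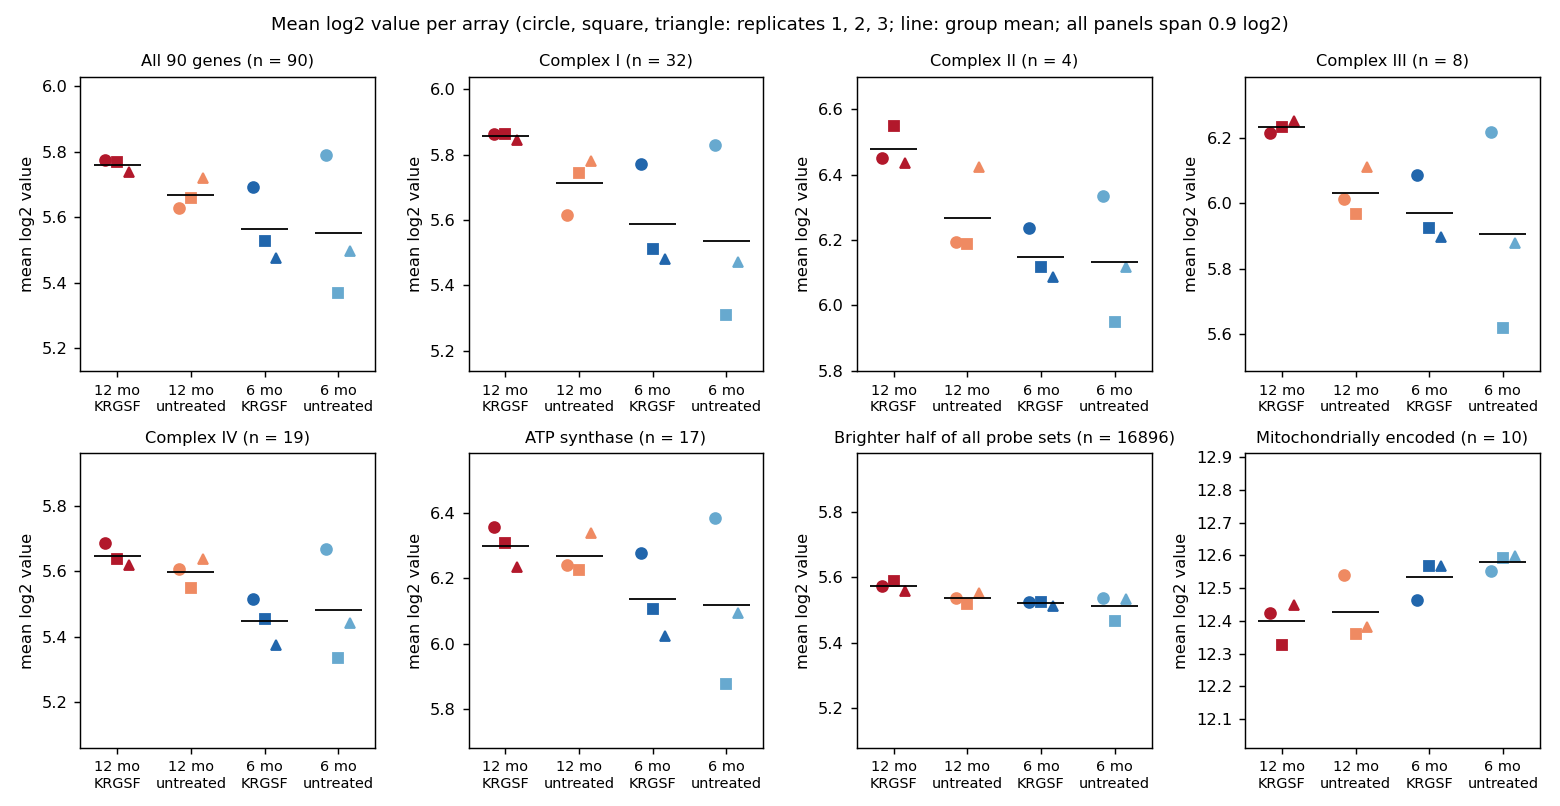
Mean log2 value per array (vertical axis) for all 90 genes, each complex, the probe sets above the median brightness and the mitochondrially encoded subunits, in the 4 groups (horizontal axis), with 1 point per array and a line at the group mean. The 12-month-old KRGSF-treated arrays stand close together, while the 6-month-old untreated arrays of the 90 genes run between 5.37 and 5.79.

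Over the 4 groups, 13 of the 90 genes (14.4%) passed limma's moderated F test at an unadjusted p under 0.05, where 17.6% of all probe sets did. None passed after Benjamini-Hochberg adjustment over all probe sets (0.00592% of all probe sets did), and the lowest adjusted p was 0.208, for Ndufa4l2, Ndufs1 and Sdha. The share was thus below that of all probe sets. The count was 32 without 6-month-old untreated replicate 1, and 7, 6 and 8 with replicates 1, 2 and 3 of the 12-month-old KRGSF-treated arrays omitted in turn. No gene of the 90 was called at an adjusted p under 0.05 in any pairwise comparison, so the differences below are given as values with unadjusted p.

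In KRGSF-treated ovaries, the respiratory chain genes were mostly higher at 12 than at 6 months, 68 of 90. Their median log2 difference was 0.25, against -0.08 over all probe sets and 0.06 over the probe sets above the median brightness. Over equal bins of all probe sets by brightness, those with median log2 values of 5.66 to 6.52 had median differences of 0.18 to 0.30. The median of the 90 genes lay within that range. At an unadjusted p under 0.05, 21 were higher (23.3%) and 1 lower, where 9.9% of all probe sets were higher and 10.2% lower, and 18.3% of those above the median brightness were higher. No probe set passed adjustment (0%), and the lowest adjusted p of the 90 genes was 0.116. The 22 genes at that p became 13 without replicate 2 of the 12-month-old and 14 without replicate 3 of the 6-month-old treated arrays, with medians between 0.21 and 0.31 over all single omissions. Medians by complex were 0.29 for complex I (28 of 32 higher, 9 at an unadjusted p under 0.05), 0.35 for complex II (4 of 4, 1), 0.22 for complex III (6 of 8, 3), 0.19 for complex IV (14 of 19, 5) and 0.36 for ATP synthase (12 of 17, 3). Without its 8 isoforms of restricted tissues or states, complex IV had a median of 0.31 (11 of 11 higher, 4 at that p). The complex I assembly factors, which build the complex but are not part of it, had a median of -0.09 with 4 of 8 higher and none at that p.

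**Figure D2:**
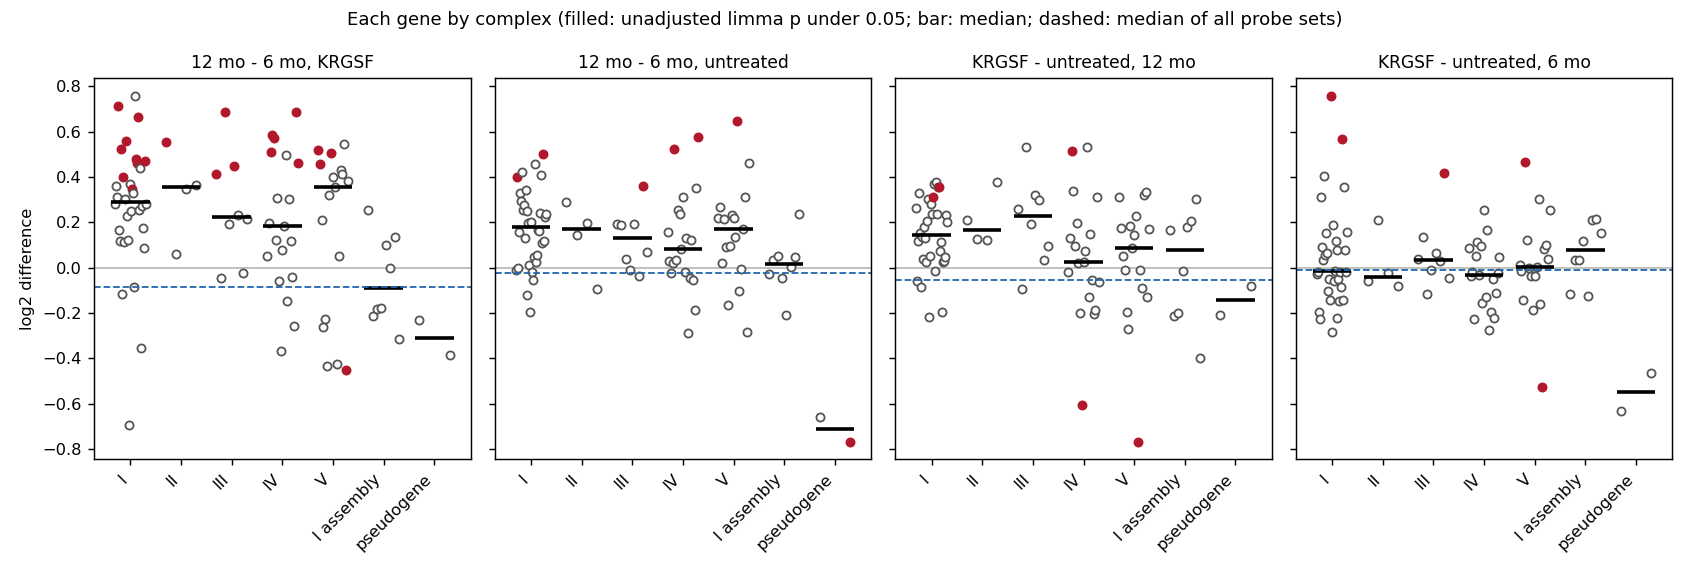
Log2 difference of each gene (vertical axis) by complex (horizontal axis) in the 4 pairwise comparisons, with bars at the median of each complex and a dashed line at the median of all probe sets. Filled points have an unadjusted limma p under 0.05, and most of them lie in the comparison of ages in KRGSF-treated ovaries, 21 above and 1 below 0.

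In complex I, Ndufs1, the large iron-sulfur core subunit of the electron-entry arm, had log2 values of 5.59, 5.91 and 5.56 in 12-month-old and 5.15, 5.07 and 4.84 in 6-month-old KRGSF-treated ovaries. All arrays of the older ovaries lay above all of the younger, by 0.66 ± 0.16 (SE, limma unadjusted p = 0.00072, adjusted p = 0.116), or 1.59-fold. Such a separation was common in this comparison: 33 of the 90 genes had all older arrays above all younger, and 8 below. Of all 33793 probe sets it was 4479 above and 4870 below, and of the 16896 above the median brightness 4135 and 1902. Ndufa12, an accessory subunit, had 5.80, 5.71 and 5.91 in 12-month-old against 5.37, 4.87 and 5.04 in 6-month-old treated ovaries, a log2 difference of 0.72 (adjusted p = 0.125). These groups did not overlap either, but a second, dimmer probe set of Ndufa12 differed by -0.25, and the mean of both by 0.23. Of the 9 genes with several probe sets, 4 had opposite signs here: Ndufa12, Cox5b, Ndufa8 (0.30 and, dimmer, -0.07) and Atp5d (-0.26 and 0.13). The number was also 4 for age in untreated ovaries and for KRGSF at 12 months, and 6 for KRGSF at 6 months. With the mean of all probe sets of a gene, the median over the 90 genes was 0.23 in this comparison. The accessory subunits Ndufa9, Ndufa3, Ndufc1, Ndufc2, Ndufa6 and Ndufb6 and the iron-sulfur core subunit Ndufv2 differed by 0.35 to 0.56, with adjusted p of 0.154 to 0.227. Without 12-month-old KRGSF-treated replicate 2 the value of Ndufv2 was 0.27.

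Among complex II genes, Sdha, the flavoprotein that oxidises succinate and also serves the tricarboxylic acid cycle, had 7.50, 7.83 and 7.70 in 12-month-old and 7.03, 7.20 and 7.14 in 6-month-old KRGSF-treated ovaries. The groups were apart by 0.55 ± 0.15 (SE, adjusted p = 0.119). The iron-sulfur subunit Sdhb differed by 0.06, and the membrane anchors Sdhc and Sdhd by 0.34 and 0.36, none at an unadjusted p under 0.05. In complex III, Uqcrc2, a core protein, had 7.72, 7.86 and 7.59 in 12-month-old against 7.39, 7.26 and 7.17 in 6-month-old treated ovaries, which did not overlap, a difference of 0.45. Cyc1, the cytochrome c1 that passes electrons to cytochrome c, differed by 0.41, and Uqcrb by 0.69 with an SE of 0.29.

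In complex IV, Ndufa4 had 8.20, 8.51 and 8.24 in 12-month-old and 7.76, 7.67 and 7.46 in 6-month-old KRGSF-treated ovaries, a difference of 0.69 ± 0.22 (SE, adjusted p = 0.135) with no overlap. The accessory subunits Cox5a, Cox5b and Cox6a1 differed by 0.51, 0.59 and 0.57. For Cox5b a second, dimmer probe set ran the other way, by -0.53, and the mean of both was 0.03. In ATP synthase, the alpha and beta subunits of the catalytic head, Atp5a1 and Atp5b, differed by 0.52 and 0.46, and Atp5g3, which encodes the ring subunit c, by 0.51. Atp5o, the stalk subunit that holds head and membrane part together, was the 1 gene lower at an unadjusted p under 0.05: 4.54, 4.41 and 4.60 in 12-month-old against 4.93, 5.23 and 4.75 in 6-month-old treated ovaries, without overlap, by -0.45 ± 0.20 (SE, adjusted p = 0.218).

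In untreated ovaries, most genes were likewise higher at the older age, with a smaller median. Of the 90 genes 67 were higher at 12 months, with a median log2 difference of 0.13, against -0.02 over all probe sets and 0.04 over those above the median brightness. Over 20 equal bins of all probe sets by brightness, those with median log2 values of 5.66 to 6.52 had median differences of 0.09 to 0.18. At an unadjusted p under 0.05, 6 genes were higher (6.67%) and 1 lower, where 3.42% of all probe sets were higher and 4.63% lower (0.00296% passed adjustment, lowest adjusted p of the 90 genes 0.609). Above the median brightness, 5.29% of all probe sets and 6.41% of the 78 genes that lay there were higher at that p. The median of the 90 genes rests on single arrays: it was 0.01 without 6-month-old untreated replicate 2 and 0.25 without that group's replicate 1. With these omissions the count of 7 at that p became 2 and 22. Without replicate 3 of that group it was 4. Complex I had a median of 0.18, complex II of 0.17, complex III of 0.13, complex IV of 0.08 (0.13 without isoforms of restricted tissues or states) and ATP synthase of 0.17. Omitting replicate 2 of the 6-month-old untreated arrays brought complex I to 0.06, complex II to 0.06, complex III to -0.02, complex IV to 0.01 and ATP synthase to 0.00.

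The lowest unadjusted p with age in untreated ovaries belonged to Ndufa4l2, known as a hypoxia-induced paralogue of Ndufa4. Its log2 values were 7.19, 7.38 and 7.67 at 12 months and 7.00, 6.59 and 6.92 at 6 months, apart by 0.58 ± 0.16 (SE, unadjusted p = 0.0032, adjusted p = 0.609). In treated ovaries it had 7.49, 7.34 and 7.21 at 12 months and 6.85, 6.93 and 6.87 at 6 months, apart by 0.46 (0.19 after cyclic loess). All 6 arrays of the older ovaries thus lay above all 6 of the younger. Among untreated ovaries alone, 5 of the 90 genes had all older arrays above all younger, and 0 below. Of all 33793 probe sets it was 2105 above and 2425 below. Cox6a1, the widely expressed form of subunit 6a, had 9.40, 9.47 and 9.94 at 12 months against 9.45, 8.72 and 9.06 at 6 months, which overlapped, by 0.52, or 0.35 without 6-month-old untreated replicate 2. These 2 genes were the ones higher at an unadjusted p under 0.05 at both treatments, 2 of 6 in untreated and 2 of 21 in treated ovaries. Atp5j2, the small f subunit of ATP synthase, was higher by 0.65 and Uqcrh, the hinge protein of complex III, by 0.36. Ndufs8, an iron-sulfur core subunit of complex I, was higher by 0.50 (0.77 without 6-month-old untreated replicate 1 and 0.28 without replicate 2), and the accessory subunit Ndufa10 by 0.40 (0.60 without that replicate 1). The 1 lower gene was the pseudogene Uqcrh-ps1, with a log2 difference of -0.77, or -0.35 without 12-month-old untreated replicate 2, at mean log2 values near the dim end of the scale.

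With KRGSF at 12 months, 63 of the 90 genes (70.0%) were higher than in untreated ovaries, with a median log2 difference of 0.13, against -0.05 over all probe sets and 0.04 over those above the median brightness, of which 56.3% were higher. In the brightness bins with median log2 values of 5.66 to 6.52, all probe sets had median differences of 0.11 to 0.17. Few of the 90 genes stood out: 3 were higher (3.33%) and 2 lower at an unadjusted p under 0.05, where 4.61% of all probe sets were higher and 5.63% lower, so neither share was above that of all probe sets. The lowest adjusted p of the 90 genes was 0.433 (0.00296% of all probe sets passed adjustment). Without 12-month-old KRGSF-treated replicate 2 the 5 genes at that p became 3. Complex I had a median of 0.14 with 27 of 32 higher, complex II of 0.17, complex III of 0.23 with 7 of 8 higher, complex IV of 0.03 and ATP synthase of 0.09. Without isoforms of restricted tissues or states, complex IV had a median of 0.10 with 9 of 11 higher. The lean depended on the scaling: after cyclic loess 52 of 90 were higher (57.8%, median 0.01) and after quantile normalisation 54 (60.0%, median 0.03), with complex IV and ATP synthase at -0.02 and -0.04 under both.

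Cox5a, an accessory subunit of complex IV, had 6.80, 6.54 and 6.41 in KRGSF-treated and 6.08, 5.87 and 6.25 in untreated 12-month-old ovaries. The groups did not overlap and differed by 0.51 ± 0.17 (SE, unadjusted p = 0.0089, adjusted p = 0.433), and the 6-month-old ovaries had 5.94, 6.30 and 5.98 with KRGSF and 6.27, 5.90 and 6.11 without. Ndufs1 was higher by 0.35 and Ndufb6 by 0.31. Atp5j2 was lower, at 3.78, 3.58 and 3.90 with KRGSF against 4.38, 4.68 and 4.49 without, by -0.77 ± 0.22 (SE, unadjusted p = 0.0037, adjusted p = 0.433). Every treated array lay below every untreated one, as for 5 of the 90 genes and 3433 of all 33793 probe sets. The other way round it was 18 genes and 2897 probe sets. Cox7a1, known as the heart and muscle form of subunit 7a, was lower (log2 difference -0.60), at 4.02, 3.70 and 3.93 with KRGSF against 4.63, 4.15 and 4.68 without, again without overlap. Atp5j2 and Cox7a1 had mean log2 values of 4.08 and 4.26, below the median brightness of all probe sets (4.28). Probe sets below that brightness had a median difference of -0.13 with KRGSF at 12 months, and 7.93% were lower at an unadjusted p under 0.05.

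**Figure D3:**
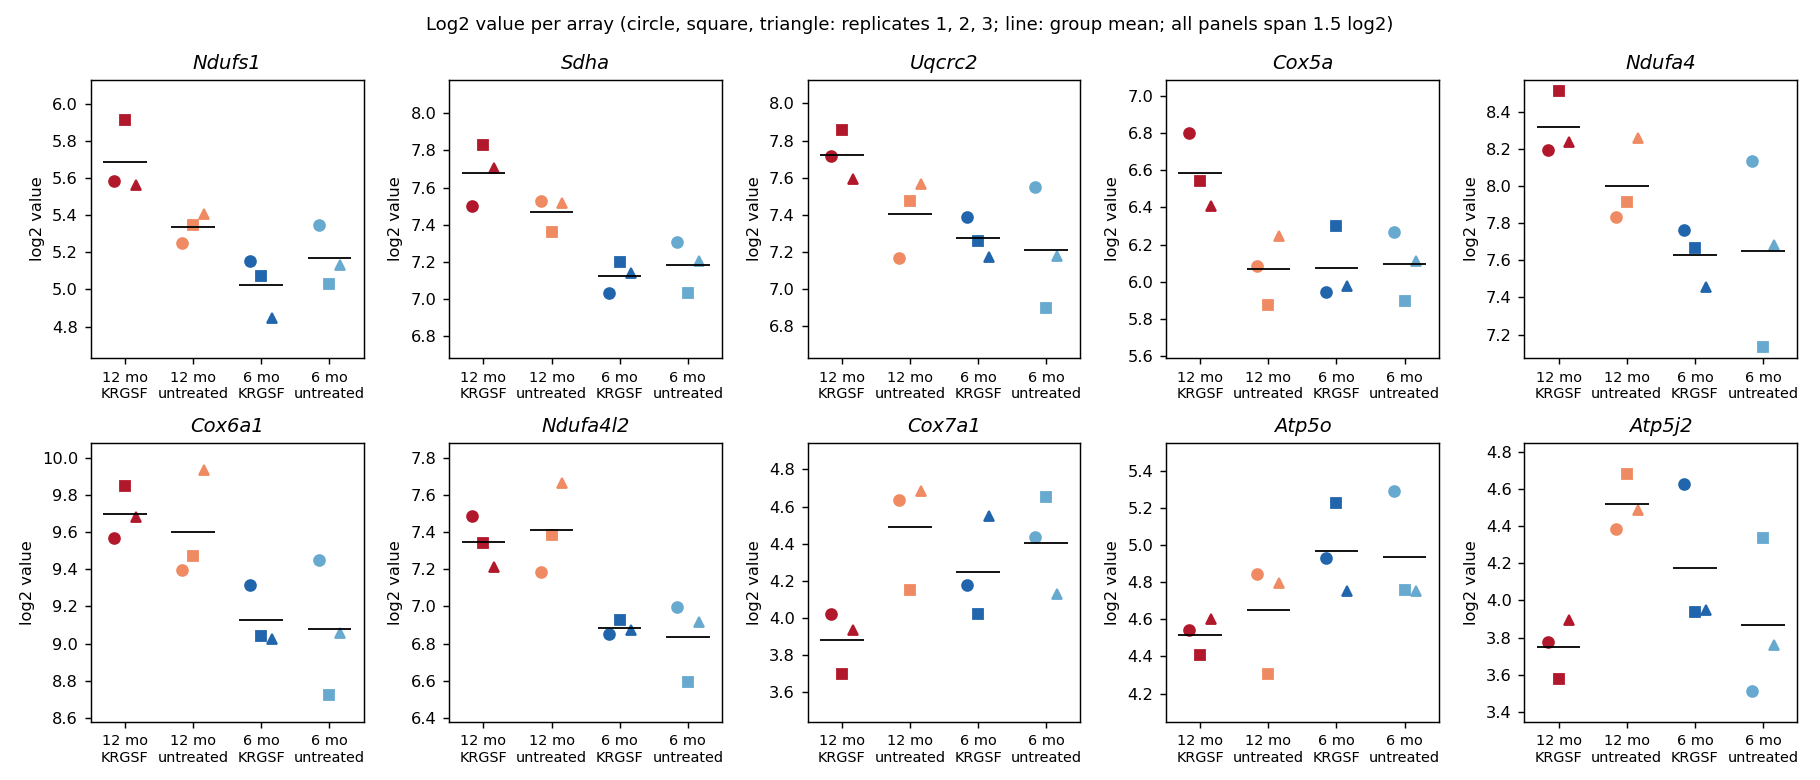
Log2 value per array (vertical axis) of 10 genes in the 4 groups (horizontal axis), with 1 point per array and a line at the group mean. Ndufa4l2 and Sdha separate the ages at both treatments, Cox5a is highest on the 12-month-old KRGSF-treated arrays (6.41 to 6.80), and Atp5j2 has 3.58 to 3.90 there against 4.38 to 4.68 on the 12-month-old untreated arrays.

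With KRGSF at 6 months the genes were evenly divided, 43 of 90 higher with a median log2 difference of -0.01, equal to that of all probe sets to 2 decimals. At an unadjusted p under 0.05, 4 were higher (4.44%) and 1 lower, where 2.15% of all probe sets were higher and 3.08% lower, and no probe set passed adjustment (0%, lowest adjusted p of the 90 genes 0.909). The median was 0.13 without 6-month-old untreated replicate 1 and -0.12 without replicate 2, and the 5 genes became 10 without replicate 1 and 2 without replicate 3. Omitting KRGSF-treated replicate 1 or 2 left 2 or 3. After cyclic loess 34 of 90 were higher (37.8%), against 47.8% as deposited. Atp5d, the delta subunit of the ATP synthase head, had 5.71, 6.22 and 5.87 with KRGSF and 5.49, 5.33 and 5.58 without, no overlap and a difference of 0.47. A second probe set of Atp5d, with a mean log2 value of 5.62 against 5.69, differed by 0.25 (limma unadjusted p = 0.222). On the probe sets used, Atp5d was the 1 gene of the 90 with all treated arrays above all untreated, and 0 had them below. Of all 33793 probe sets it was 1514 above and 1670 below. Uqcrh was higher by 0.42. The complex I subunits Ndufb11 and Ndufs5 were higher by 0.76 and 0.57, but without 6-month-old KRGSF-treated replicate 1 by 0.41 and 0.33. For Ndufb11 the value was 0.50 with replicate 3 of the untreated arrays omitted and 1.15 with replicate 3 of the treated arrays omitted. Atp5l, the g subunit of ATP synthase, was lower (log2 difference -0.53, or -0.30 without 6-month-old KRGSF-treated replicate 2).

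The difference made by KRGSF at 12 months minus that at 6 months was tested as an interaction. Its median over the 90 genes was 0.14, with 57 genes positive, against -0.02 over all probe sets. At an unadjusted p under 0.05, 3 genes were positive and 2 negative, where 2.05% of all probe sets were positive and 3.4% negative, so that the count was near the background (0.00592% passed adjustment, lowest adjusted p of the 90 genes 0.862). The median was -0.03 without 6-month-old untreated replicate 1. The 5 genes became 13 without replicate 2 of that group, and 1 to 3 when any of 6 other arrays was omitted: 6-month-old untreated replicate 3, 6-month-old KRGSF-treated replicate 3, replicates 1 and 2 of the 12-month-old untreated and replicates 1 and 2 of the 12-month-old KRGSF-treated arrays. Ndufs1, Cox5a and Cox5b were the positive ones, by 0.50, 0.53 and 0.57. Atp5j2 was negative by -1.07 ± 0.32 (SE, adjusted p = 0.862): at 6 months its values were 4.63, 3.94 and 3.95 with KRGSF and 3.51, 4.34 and 3.76 without, which overlapped. Ndufs5 was negative by -0.76. These comparisons share groups of arrays, so their values are not independent of each other.

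Complex IV has isoforms of restricted tissues or states, and 8 of them were measured (Cox4i2, Cox6a2, Cox6b2, Cox7a1, Cox7b2, Cox8b, Cox8c and Ndufa4l2). With age, 3 of the 8 were higher in treated ovaries (median -0.05) and 5 of 8 in untreated (median 0.03). Their 7 common counterparts (Cox4i1, Cox6a1, Cox6b1, Cox7a2, Cox7b, Cox8a and Ndufa4) were all higher in both, with medians of 0.31 and 0.25. This contrast of counts was not seen after rescaling: with cyclic loess 5 of 8 restricted and 4 of 7 common forms were higher in treated ovaries, with medians of 0.10 and 0.28. Cox7b2, known as a testis form, had a mean log2 value of 1.92 over the 12 arrays. With KRGSF at 12 months 2 of 8 restricted forms were higher, with a median of -0.16, and 5 of 7 common forms, with a median of 0.03.

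The signed differences of the 90 genes went with the brightness of the probe sets, except for KRGSF at 6 months. Of the 90 genes, 78 lay above the median brightness of all probe sets. Across all 90 genes, Spearman's rho between mean log2 value and signed log2 difference was 0.62 for age in treated and 0.48 for age in untreated ovaries. It was 0.36 for KRGSF at 12 months and 0.03 for KRGSF at 6 months. Across all probe sets the values were, in the same order, 0.36, 0.24, 0.36 and 0.15. Genes on one array set are not independent replicates. In the comparison of ages in treated ovaries, all probe sets in the second brightest of 20 equal bins had a median difference of 0.30 and those in the brightest bin of 0.25, against -0.18 in a dim bin with a median log2 value of 3.43. The 78 brighter genes had a median of 0.29 and the 12 dimmer ones of -0.22. What part of the genes' differences goes with brightness alone was not tested gene by gene, but 2 scalings that give all arrays like distributions were applied.

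**Figure D4:**
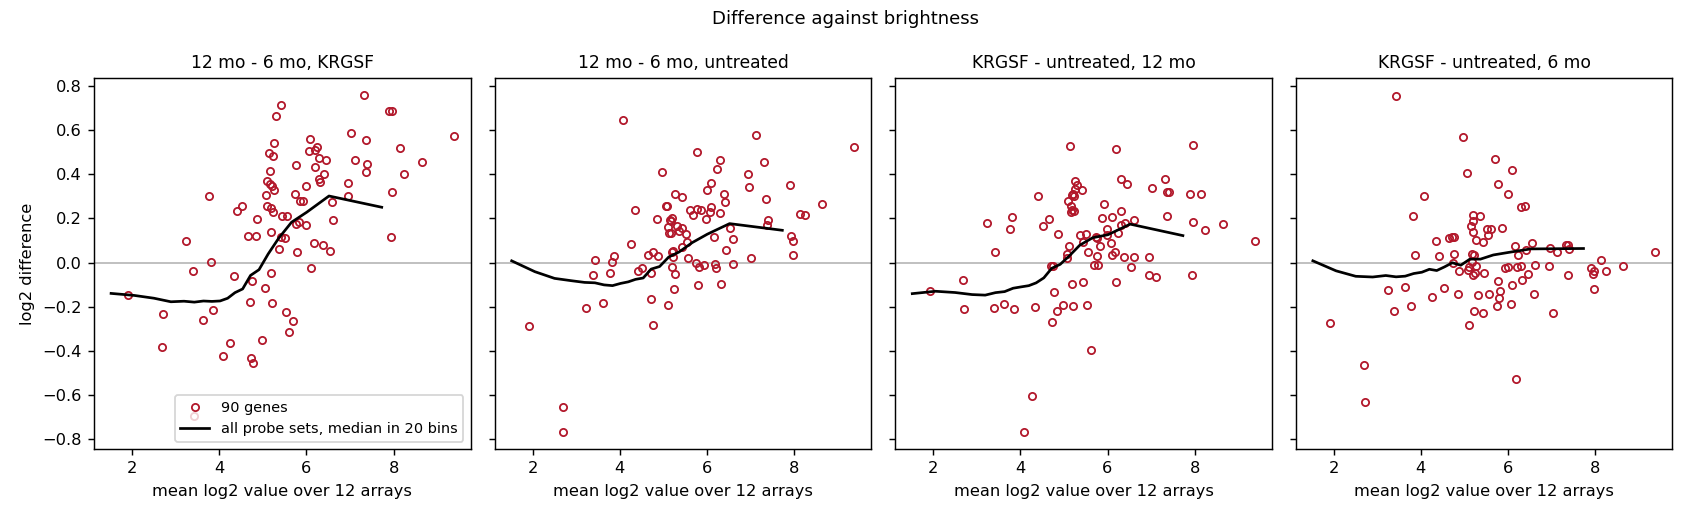
Log2 difference (vertical axis) against mean log2 value over the 12 arrays (horizontal axis) for the 90 genes (circles) in the 4 pairwise comparisons, with the median of all probe sets in 20 bins of brightness as a line. In the comparison of ages in treated ovaries the line runs below 0 for dim and above 0 for bright probe sets, with a median of 0.30 in the second brightest bin.

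With cyclic loess, the median over the 90 genes was 0.14 for age in treated ovaries (61 higher) and 0.08 for age in untreated ovaries (60 higher), while those of all probe sets were 0.00 to 2 decimals. With quantile normalisation they were 0.16 (62 higher) and 0.10 (66 higher). At an unadjusted p under 0.05, age in treated ovaries then gave 10 higher and 3 lower with cyclic loess, where 7.36% of all probe sets were higher and 6.85% lower, and 12 higher and 1 lower with quantile normalisation, where 7.02% of all probe sets were higher and 6.05% lower. The direction of the median thus stood, at a smaller size. Cyclic loess brought Sdha to 0.28, Ndufa4 to 0.42, Cox5a to 0.28, Cox5b to 0.31, Uqcrc2 to 0.17, Atp5a1 to 0.27 and Atp5b to 0.23 in that comparison, of which Sdha and Ndufa4 kept an unadjusted p under 0.05. By complex the cyclic loess medians were 0.15 for complex I, 0.13 for complex II, 0.14 for complex III, 0.19 for complex IV and 0.14 for ATP synthase.

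**Figure D5:**
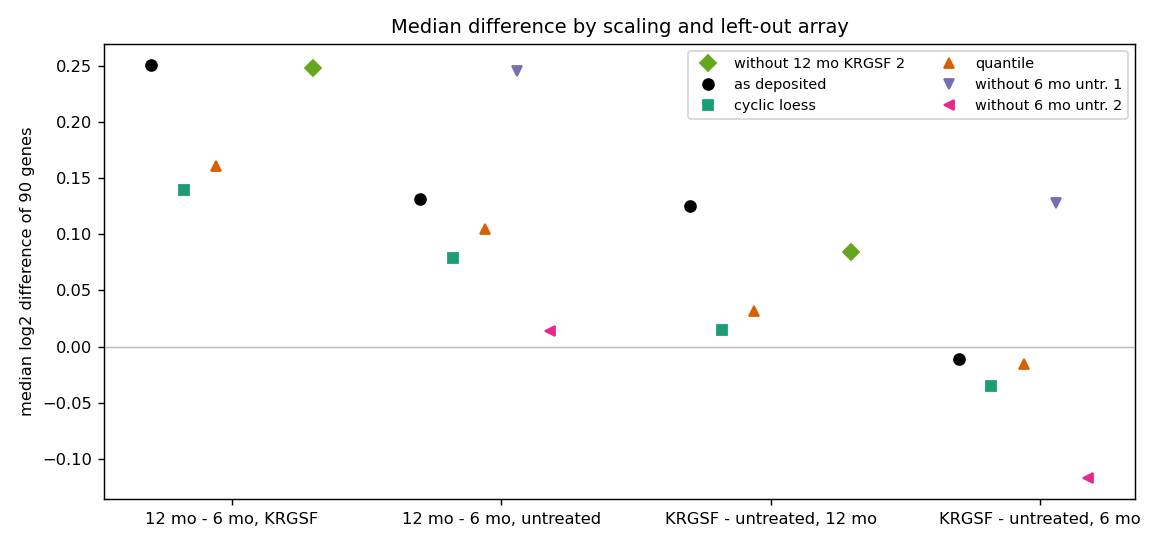
Median log2 difference of the 90 genes (vertical axis) in the 4 pairwise comparisons (horizontal axis) as deposited, after cyclic loess, after quantile normalisation and without single arrays. In untreated ovaries the median with age was 0.13 as deposited, 0.01 without 6-month-old untreated replicate 2 and 0.25 without replicate 1.

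Of the subunits encoded by mitochondrial DNA, 10 were measured, and as deposited 0 of 10 were higher at 12 months in treated ovaries (median -0.11) and 0 of 10 in untreated ovaries (median -0.14). After cyclic loess 5 of 10 were higher in treated and 0 of 10 in untreated ovaries, and after quantile normalisation 4 of 10 and 2 of 10. The difference from the nuclear genes was not tested. ND6, a complex I subunit read from the opposite strand, had 10.07, 9.74 and 10.13 in 12-month-old and 10.28, 10.44 and 10.64 in 6-month-old treated ovaries. The groups were apart by -0.47, and in untreated ovaries also by -0.47. It was the 1 mitochondrial gene of 10 (10%) at an unadjusted p under 0.05 in each. Of all probe sets, 10.2% were lower at that p in treated and 4.63% in untreated ovaries. All other mitochondrial genes had log2 values over 12, near the top of the scale.

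Neighbouring pathways were read in the same way for age in treated ovaries, where 9.9% of all probe sets and 18.3% of those above the median brightness were higher at an unadjusted p under 0.05. Tricarboxylic acid cycle genes, which feed the chain with electrons, were higher in 14 of 15, 9 at that p (60%), with a median of 0.41 (0.20 after cyclic loess). Adenine nucleotide and phosphate carriers were higher in 7 of 9, 4 at that p (44.4%), with a median of 0.32. Regulators of mitochondrial biogenesis were higher in 12 of 14, 3 at that p (21.4%), with a median of 0.23 (0.27 after cyclic loess). Other assembly factors of the chain were higher in 27 of 39, 8 at that p (20.5%), with a median of 0.08. A sample of cytosolic ribosomal proteins of the large subunit (28 measured of 37 listed) was higher in 20 of 28, with a median of 0.15. Of these, 2 were higher at that p (7.14%, below the share of all probe sets). Genes of cytochrome c, coenzyme Q synthesis and electron transfer were higher in 10 of 15, 3 at that p (20%), and those of mitochondrial import in 13 of 17, 4 at that p (23.5%).

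Markers of other cell types were compared between the ages as well. In untreated ovaries, where 3.42% of all probe sets were higher and 4.63% lower at an unadjusted p under 0.05, surface and oviduct epithelium markers were higher at 12 months in 9 of 10 (4 at that p, median 0.38), with mean levels of 6.94 to 7.06 at 12 and 6.59 to 6.70 at 6 months. Luteal markers were higher in 1 of 6 (3 lower at that p, median -0.63), with mean levels of 6.23 to 6.91 at 12 and 7.20 to 7.80 at 6 months. In treated ovaries, with 9.9% of all probe sets higher and 10.2% lower by this test, endothelium markers were higher at 12 months in 6 of 8 (3 at that p, median 0.33), with mean levels of 5.62 to 5.94 at 12 and 5.38 to 5.49 at 6 months, which did not overlap. Oocyte markers were higher in 0 of 12 (1 lower at that p, 8.33%, median -0.11), with mean levels of 3.82 to 3.97 at 12 and 4.01 to 4.10 at 6 months. These levels lie below the median brightness of all probe sets (4.28). Of the probe sets below that brightness, 23.3% were higher and 12.1% were lower at that p, with a median of -0.17. Epithelium markers were higher in 7 of 10 (3 at that p, median 0.35), with mean levels of 6.76 to 7.22 at 12 and 6.65 to 6.78 at 6 months, and luteal markers in 1 of 6 (1 at that p, and 1 lower at it), with mean levels of 5.96 to 7.09 at 12 and 7.12 to 7.35 at 6 months. Muscle markers were higher at 12 months in 1 of 12 there (4 lower at that p), with mean levels of 4.30 to 4.45 at 12 and 4.66 to 4.73 at 6 months, and adipocyte markers in 3 of 11 (1 at that p, 2 lower). Granulosa markers were higher in 6 of 9, theca markers in 2 of 5 and macrophage and lymphocyte markers in 5 of 9, with medians of 0.16, -0.16 and 0.03. Their part in the differences of the respiratory chain genes was not tested.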

How the data were processed

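RNA of 12 ovary cultures, 3 per group, was hybridised to Affymetrix Mouse Gene ST arrays. The authors deposited log2 values per probe set, for which the submitters' processing notes name RMA and Affymetrix Expression Console 1.4, and which arrays were normalised together is not given in the sources used here. Groups came from the labels. Probe sets were named from the platform annotation, where 23521 of 33793 had 1 symbol, 1820 several and 8452 none. All probe sets were fitted with 1 mean per group in limma 3.58.1 (R 4.3.3, statmod 1.5.0), with moderated t and F tests on 8 residual degrees of freedom and Benjamini-Hochberg adjustment over all probe sets. The code was tested on simulated data. Probe signals and detection calls were not used, so no probe set was called absent, and precision is limited by the number of arrays. Genes were named where they passed an unadjusted p under 0.05 (at most 8 per direction and comparison, or past 1.5-fold), besides the Sdh genes, Cyc1, Ndufa4, isoforms and some of the genes with discordant probe sets. Others of these were not described, such as Ndufa11 (0.00 and, on a second probe set, -0.46 with age in untreated ovaries). Cox7b likewise had 0.13 and -0.17 there. Ndufc2, Ndufa6, Ndufa3, Ndufc1, Ndufv2, Uqcrc2, Atp5a1, Atp5b and Atp5g3 were added after their values were seen. The genes and lists were chosen with earlier results of these data known. Alternatives were cyclic loess, quantile normalisation, a filter on dim probe sets, the mean of all probe sets of a gene, the methods' t-test, array weights, a replicate block, fits on the compared groups and left-out arrays.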

Additional observations from a re-analysis of the deposited data

Results flagged for a closer look

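In all, 5 respiratory chain genes differed in their KRGSF difference between the ages by the interaction test at an unadjusted p under 0.05, none after adjustment over all probe sets. With 3 positive and 2 negative (3.33% and 2.22%), against 2.05% and 3.4% of all probe sets, the count was near that of all probe sets. Atp5j2 had a log2 interaction of -1.07 (limma unadjusted p = 0.0041, adjusted p = 0.862) and Ndufs5 of -0.76 (adjusted p = 0.901). Cox5a had 0.53, Cox5b 0.57 and Ndufs1 0.50, each with an adjusted p of 0.901. For Cox5b the mean of both probe sets gave 0.05.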

How the results depend on the processing

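No respiratory chain gene passed adjustment under any alternative, and over the single-array omissions the count stayed at 0 to 0. The 44 named differences had been picked for an unadjusted p under 0.05 in these data. They kept their direction in all 758 combinations of gene and alternative. Of these, 547 kept and 211 lost that p, 22 of 44 after cyclic loess and 18 of 44 after quantile normalisation. The cause of the losses was not tested. The dim filter, eBayes trend and robust, the restriction to common isoforms and the compared groups alone leave each difference unchanged. So do the methods' t-test and the replicate block, and no direction could change under any of these.

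Counts at an unadjusted p under 0.05 moved by more than 1.5 times as follows. Age in untreated ovaries (7 as deposited) gave 3 after cyclic loess, 4 on the compared groups alone, 3 by the methods' t-test and 2 without the 2 arrays that stand apart. Age in treated ovaries (22) gave 13 after cyclic loess and 13 after quantile normalisation. KRGSF at 12 months (5) gave 8 with eBayes trend and robust, 8 on the compared groups alone, 15 by the methods' t-test and 3 without both arrays. KRGSF at 6 months (5) gave 0 by the methods' t-test. The interaction (5) gave 8 with array weights. The F test (13) gave 4 after cyclic loess, 6 after quantile normalisation, 21 with array weights and 5 without both arrays.

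Leaving out 1 array at a time gave counts of 2 to 22 for age in untreated ovaries (median 0.014 to 0.25), 13 to 27 for age in treated ovaries (0.21 to 0.31), 3 to 6 for KRGSF at 12 months (0.08 to 0.14), 2 to 10 for KRGSF at 6 months (-0.12 to 0.13), 1 to 13 for the interaction (-0.031 to 0.24) and 6 to 32 for the F test.

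With the replicate number as a block the interaction count was 1, and the other counts moved by less than 1.5 times. The deviations of same-numbered arrays from their group means correlated at -0.278 to 0.233 over 18 pairs. Pairs with different numbers were not computed, so this range cannot settle whether the numbers pair. No label names a shared animal or batch, and the numbers were not taken as pairs.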
